A study of Mus musculus with 8 samples.

Results

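The proteasome subunit genes of the mouse ovary are described here: all genes of the array whose platform symbol is Psma, Psmb, Psmc, Psmd, Psme, Psmf or Psmg followed by a number. The rule found 46 genes among the 18069 genes that the platform annotation names. Each gene is given by its brightest probe, the one with the highest mean over the 8 arrays, and no treatment difference entered the choice of probe. By role, 8 genes encode alpha subunits and 7 encode constitutive beta subunits of the core particle, and 3 encode beta subunits that replace these in some tissues. The regulatory particle is covered by 6 ATPase and 11 non-ATPase genes, activators and an inhibitor by 4 genes, and assembly factors by 7.

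The proteasome is the protease complex that degrades proteins marked with ubiquitin. Its core particle is a barrel of stacked alpha and beta rings. Cleavage takes place inside the barrel, and the alpha rings close its ends. The regulatory particle binds ubiquitin chains, removes them, and uses ATPase subunits to unfold the protein and open the ring. Interferon induces the subunits of the immunoproteasome, which supplies peptides to class I molecules. In the ovary, ubiquitin-dependent degradation takes part in oocyte meiosis and in the turnover of regulators in granulosa and luteal cells.

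The study examined ovarian gene expression after prolonged treatment with pioglitazone, an insulin-sensitizing thiazolidinedione that activates PPARγ. All 8 mice were female Lethal Yellow mice (C57BL/6J Ay/a), heterozygous for the agouti mutation Ay, which causes obesity and insulin resistance with age. Vehicle-treated mice (n = 4) received DMSO and pioglitazone-treated mice (n = 4) received the drug in DMSO, by gavage once a day, starting at 120 days and ending at 180 days of age. The dose per day is 0.1 mg in the series description and 0.01 mg in the methods, and the files do not settle which was given. One array was hybridized per mouse, so that each value comes from a single animal, and the controls carry the same mutation. Both groups are obese mice. The paper cites earlier work for a decline of ovarian function in aging Lethal Yellow mice, and does not report ovarian function for these animals. Lean C57BL/6J a/a mice were not analysed here.

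Signals are given in relative intensity units, where 1 unit is the median of the array. The limit of sensitivity used was 0.2 units. On each array, 82.5% to 83.9% of probes reached it. Vehicle mouse 3 and pioglitazone mouse 1 correlated least with the other arrays, with mean r of 0.954 and 0.959 over probes against 0.968 to 0.978 for the remaining mice. Ovarian markers were present in both groups, among them Zp3 of the oocyte (39.5 and 44.2 units), Inha of granulosa cells (31.3 and 43.5) and the steroidogenic Hsd3b1 (220.5 and 175.7), each with 4 mice per group.

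Of the 46 genes, 45 were tested. Psmb11, the beta subunit of the thymus proteasome, averaged under 0.2 units in both groups (vehicle 0.160 ± 0.0656 units, pioglitazone 0.139 ± 0.0288 units, SD, n = 4 each). A total of 44 genes reached the limit on all 8 arrays, and 37 had a mean above 10 units. Psmb10, the beta subunit that replaces Psmb7 in the immunoproteasome, is represented only by a probe that the annotation also assigns to Wdr77, and it is not reported. Psme4 has no probe of its own in the annotation. Psmc3ip and Psme3ip1 share the start of the symbol but fall outside the rule.

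Most proteasome genes had slightly lower mean signals in pioglitazone-treated mice, and 1 of them passed the unadjusted test. The log2 fold change, pioglitazone minus vehicle, was below 0 for 41 of 45 genes (91.1%), against 56.6% of all 16065 named genes tested. The median was -0.19 over the 45 genes and -0.039 over all named genes. Psmb7, a catalytic beta subunit, was the only gene called at an unadjusted p below 0.05 in limma, and it was lower. Over all named genes, 4.85% were called at this threshold, 3.27% lower and 1.57% higher, so the count of 1 among 45 is not above this background. Psmb7 was also the only one of the 45 genes whose groups did not overlap, where 3.04% of named genes had non-overlapping groups with the lower values after pioglitazone. After Benjamini-Hochberg adjustment 0% of named genes had p below 0.05, and the adjusted p of the 45 genes ran from 0.837 to 1.00. Because whole ovaries were measured, fewer cells that express these genes and less RNA per cell cannot be told apart.

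**Figure D1:**
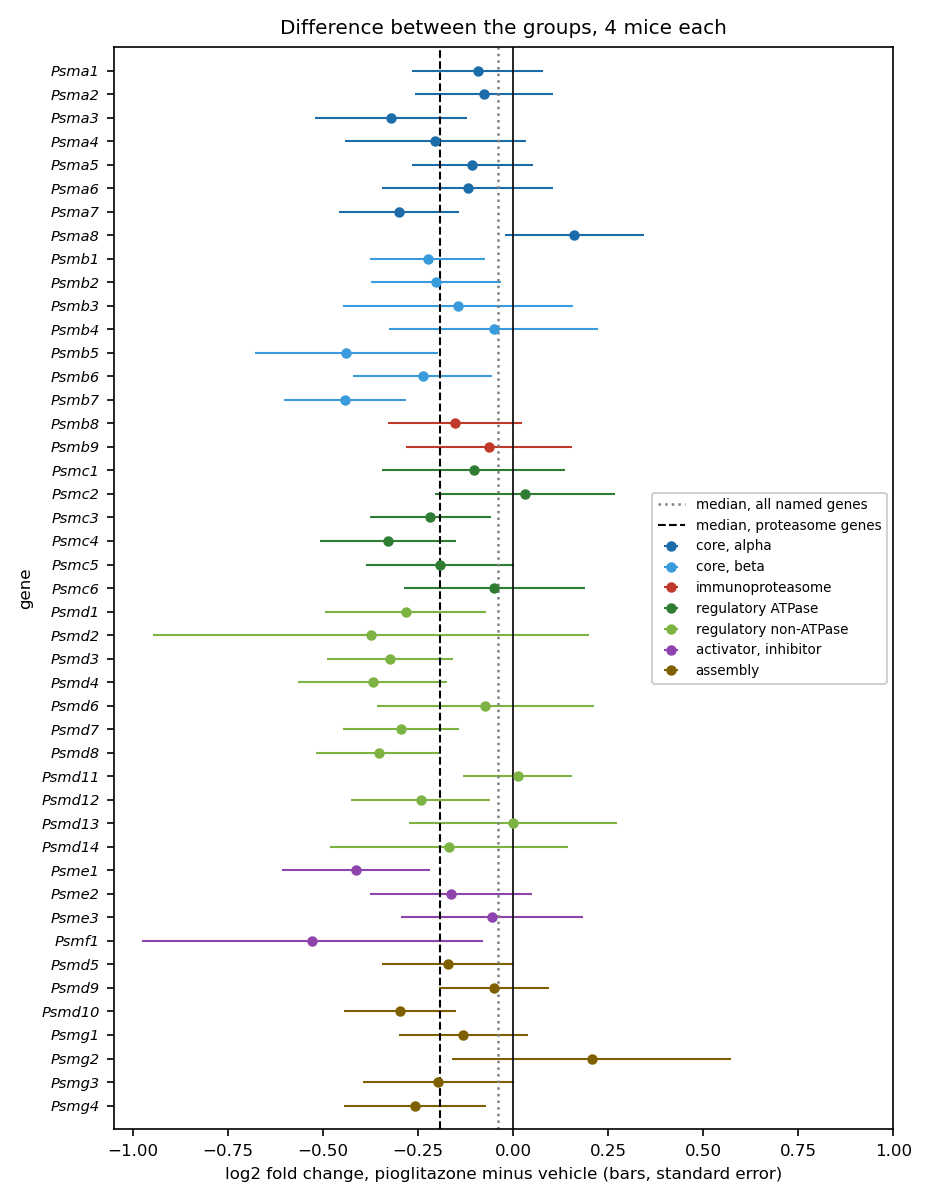
Log2 fold change of each of the 45 proteasome genes tested (points, pioglitazone minus vehicle, 4 mice per group) with its standard error from limma (bars), coloured by role. Most points lie to the left of 0, around the dashed median of -0.19, while the dotted line marks the median of all named genes at -0.039.

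The size of the shift depended on how the arrays were scaled. After quantile normalization, 32 of the 45 genes were below 0 and 13 above (71.1% below), with a median of -0.083, while the median of all named genes was -0.0012 with 50.2% of them below 0. After cyclic loess normalization, 31 were below and 14 above, with a median of -0.094. Neither normalization left a proteasome gene called. Psmb7 was at -0.33 after each of them, and its groups then overlapped, while Psmc4 was the gene whose groups did not overlap (2.03% of named genes after quantile and 2.23% after cyclic loess normalization, lower after pioglitazone). Most proteasome genes gave bright signals, and bright genes as a whole were lower after pioglitazone. Among the 3311 named genes above 10 units, the median log2 fold change was -0.084 and 65.4% were below 0, compared with a median of -0.20 for the 37 proteasome genes above 10 units. Between 40 and 80 units, the median was -0.11 for 385 named genes and -0.24 for 13 proteasome genes. After quantile normalization the 2 medians above 10 units were 0.0065 and -0.10. Signal strength therefore moved with the difference, and its part in the result was not tested.

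**Figure D2:**
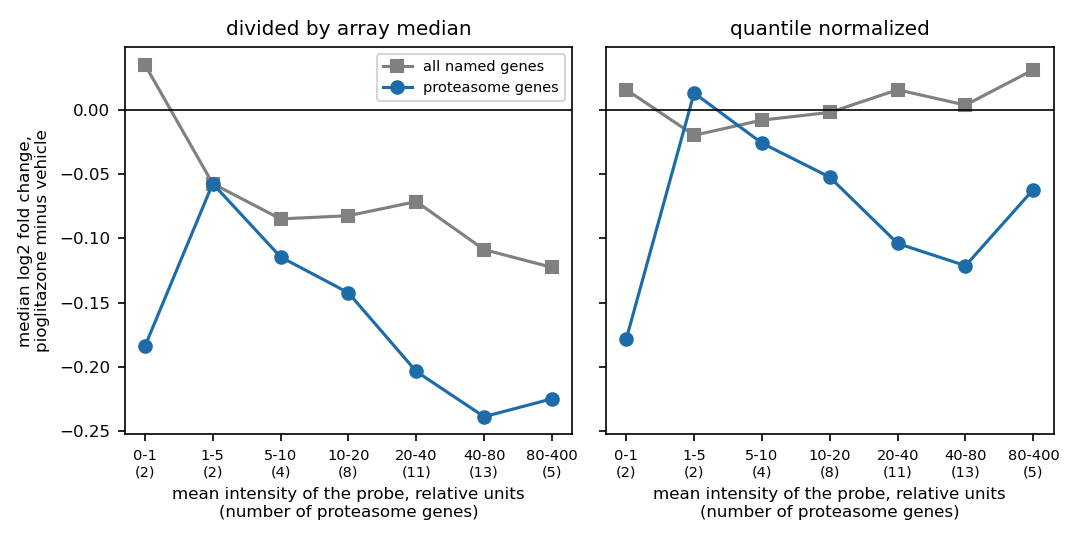
Median log2 fold change (pioglitazone minus vehicle) by mean signal of the probe, for all named genes (squares) and proteasome genes (circles, number in brackets), after division by the array median (left) and after quantile normalization (right). Above 10 units the circles lie below the squares in both panels, and the left panel shows named genes also falling below 0.

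Among the core genes, the catalytic subunits Psmb7 and Psmb5 had the lowest log2 fold changes. Psmb7 carries the trypsin-like activity and is encoded on chromosome 2 (chr2:38588046-38643952, GRCm38.p6). It measured 43.1, 53.0, 45.4 and 37.3 units in the vehicle-treated mice and 36.7, 33.6, 33.9 and 27.1 units in the pioglitazone-treated mice. Every vehicle value lay above every pioglitazone value, although the closest pair, vehicle mouse 4 and pioglitazone mouse 1, were 37.3 and 36.7. The means were 44.7 ± 6.52 and 32.8 ± 4.06 (SD, n = 4), a ratio of 0.734. The log2 fold change was -0.44 (SE 0.16), with an unadjusted limma p of 0.0219, an adjusted p of 0.837 and an exact permutation p of 0.0286 (2-sided), the smallest that 4 against 4 mice allow. Leaving out vehicle mouse 2 or pioglitazone mouse 4 gave -0.36 and -0.35, and neither passed the unadjusted threshold.

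Psmb5 carries the chymotrypsin-like activity and binds the proteasome inhibitors used in myeloma. Its signal was 55.7, 76.1, 73.9 and 42.8 units in vehicle-treated mice and 62.7, 35.2, 40.9 and 43.9 units in pioglitazone-treated mice. Vehicle mouse 4 lay among the lower pioglitazone values and pioglitazone mouse 1 among the vehicle values, so the groups overlapped. The means of 62.1 ± 15.8 and 45.7 ± 11.9 units differed by -0.44 on the log2 scale (SE 0.24, limma p = 0.100, exact permutation p = 0.171). Without pioglitazone mouse 1 the log2 fold change was -0.60, and without vehicle mouse 4 it was -0.61. Both passed the unadjusted threshold in limma, where 7.63% and 6.6% of named genes were called, against 4.85% with all 8 mice. The mice left out here are those just named as lying among the other group. Leaving out any other mouse gave -0.33 to -0.48, and none of these passed.

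Psmb6 carries the caspase-like activity. It measured 76.1, 66.2, 70.1 and 60.8 units in vehicle-treated mice and 77.1, 45.2, 52.3 and 60.9 units in pioglitazone-treated mice. Pioglitazone mouse 1 was the highest of all 8 mice, and the other pioglitazone values were near or under the lowest vehicle value. The log2 fold change was -0.24 (SE 0.18, limma p = 0.225, exact permutation p = 0.314). The noncatalytic core subunits Psmb1, Psmb2, Psmb3 and Psmb4 ranged from -0.22 in Psmb1 to -0.051 in Psmb4, and none passed the threshold.

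Neither interferon-induced beta subunit passed the threshold. Psmb8, which takes the place of Psmb5 in the immunoproteasome, measured 14.8, 17.1, 11.2 and 12.1 units in vehicle-treated mice and 13.6, 10.1, 12.4 and 13.2 in pioglitazone-treated mice. The groups overlapped over most of their range (log2 fold change -0.15, SE 0.18, limma p = 0.408, exact permutation p = 0.40). Psmb9, which takes the place of Psmb6, measured 5.75, 3.63, 3.02 and 3.10 units in vehicle-treated mice and 3.84, 3.20, 3.28 and 4.06 units in pioglitazone-treated mice. Vehicle mouse 1 stood above the others, and the log2 fold change of -0.064 (SE 0.22, limma p = 0.776, exact permutation p = 0.886) turned to 0.14 without this mouse, to 0.0076 after quantile normalization and to 0.0061 after cyclic loess normalization.

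Within each array, the log2 ratio of Psmb8 to Psmb5 averaged -2.15 ± 0.41 after vehicle and -1.87 ± 0.23 after pioglitazone (SD, n = 4 each), a difference of 0.29. The log2 ratio of Psmb9 to Psmb6 averaged -4.19 ± 0.34 and -4.01 ± 0.22, a difference of 0.17. Both differences were smaller than the SD of the vehicle-treated mice and were not tested. The ratios also contain the efficiency of each probe, so only their difference between groups can be read.

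**Figure D3:**
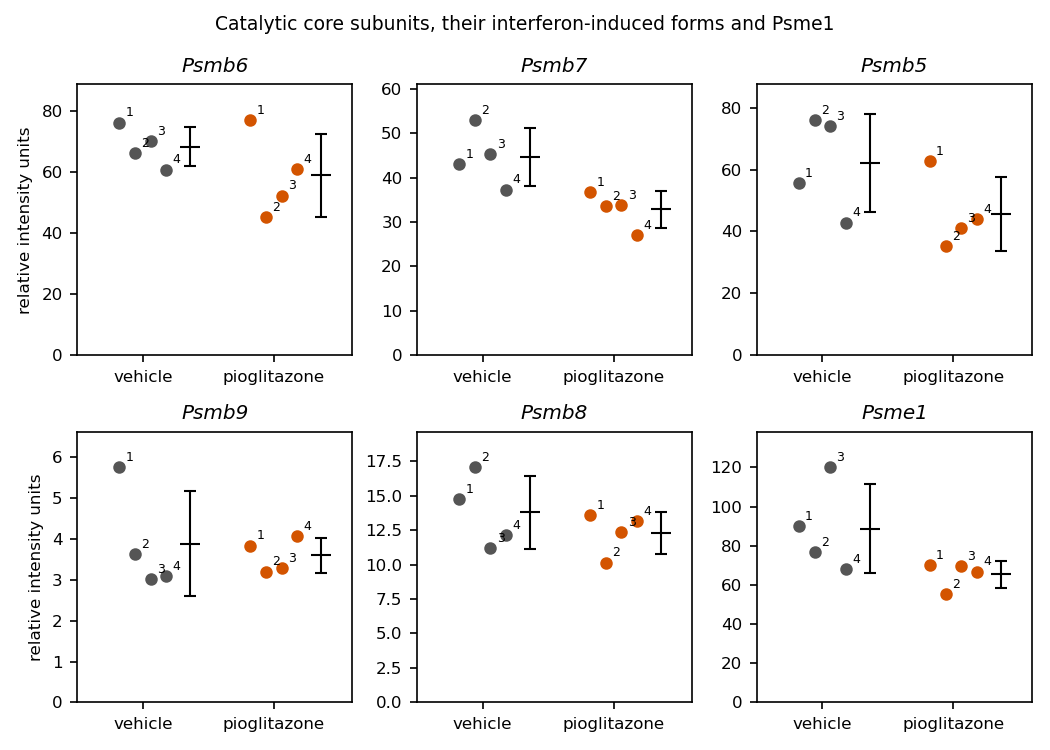
Signal in relative intensity units of the catalytic core subunits Psmb6, Psmb7 and Psmb5, of Psmb9 and Psmb8, which replace Psmb6 and Psmb5, and of the activator gene Psme1; each point is 1 mouse with its number, and bars show mean and SD (n = 4). The groups are apart only in Psmb7 (37.3 units or more against 36.7 or less), and pioglitazone mouse 1 lies with the vehicle-treated mice in Psmb5 and Psmb6.

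Psmb9 and Psmb8 lie on chromosome 17 in the class II region of the major histocompatibility complex, next to the peptide transporter genes. Psmb9 (chr17:34182030-34187330) is separated from Tap1 by 225 bases, and Psmb8 (chr17:34198195-34201454) lies 969 bases beyond Tap1. Psmb5, Psmb11, Psme1 and Psme2 lie on chromosome 14 and Psmb6 on chromosome 11. The promoters of 38 of the 46 genes, 41 sequences in all, were matched in RefSeq (GRCm38.p6), from 250 bases before to 50 after the start of the gene; Psmb7 was not among them. Some of these promoters are shown to set the constitutive subunits Psmb5 and Psmb6 beside the interferon-induced Psmb8 and Psmb9 and the activator Psme1. They are written 5′ to 3′ on the strand of the gene, and capitals mark the motif match described after them.
Psmb5 (chr14:54617946-54618245, minus strand): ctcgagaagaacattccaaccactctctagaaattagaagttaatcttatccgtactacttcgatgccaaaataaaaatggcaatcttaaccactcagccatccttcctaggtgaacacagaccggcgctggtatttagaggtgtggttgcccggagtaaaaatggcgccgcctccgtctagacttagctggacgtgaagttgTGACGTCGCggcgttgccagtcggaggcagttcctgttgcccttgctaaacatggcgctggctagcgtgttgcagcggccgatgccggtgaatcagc
Psmb6 (chr11:70525107-70525406, plus strand): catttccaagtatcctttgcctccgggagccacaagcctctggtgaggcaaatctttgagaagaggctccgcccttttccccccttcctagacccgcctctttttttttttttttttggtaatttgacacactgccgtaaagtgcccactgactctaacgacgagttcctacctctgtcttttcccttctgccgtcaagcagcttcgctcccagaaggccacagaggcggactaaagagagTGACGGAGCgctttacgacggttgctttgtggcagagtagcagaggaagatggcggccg
Psmb8 (chr17:34197945-34198244, plus strand): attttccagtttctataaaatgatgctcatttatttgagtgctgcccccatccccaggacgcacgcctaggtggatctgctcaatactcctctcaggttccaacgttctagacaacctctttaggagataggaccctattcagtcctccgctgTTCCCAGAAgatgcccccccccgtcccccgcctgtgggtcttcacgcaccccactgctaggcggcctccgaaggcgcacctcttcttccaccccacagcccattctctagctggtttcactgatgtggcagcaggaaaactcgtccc
Psmb9 (chr17:34187281-34187580, minus strand): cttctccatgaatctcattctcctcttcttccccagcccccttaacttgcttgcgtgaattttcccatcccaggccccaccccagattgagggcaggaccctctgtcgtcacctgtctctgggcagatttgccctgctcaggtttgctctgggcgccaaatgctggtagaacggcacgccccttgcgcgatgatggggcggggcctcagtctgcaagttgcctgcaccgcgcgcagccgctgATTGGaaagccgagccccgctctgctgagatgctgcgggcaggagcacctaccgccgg
Psme1 (chr14:55578244-55578543, plus strand): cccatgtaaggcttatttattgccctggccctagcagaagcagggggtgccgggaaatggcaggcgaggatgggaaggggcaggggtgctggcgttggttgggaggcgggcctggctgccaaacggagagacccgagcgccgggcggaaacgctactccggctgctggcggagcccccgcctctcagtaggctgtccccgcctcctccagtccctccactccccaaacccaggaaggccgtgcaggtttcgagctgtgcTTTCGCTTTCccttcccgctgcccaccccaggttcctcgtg
In Psmb5 and Psmb6 the capitals mark the core of the antioxidant response element, TGACNNNGC, at bases -47 to -39 and -9 to -1 from the start of the gene. The element is bound by the factors encoded by Nfe2l1 and Nfe2l2, which control proteasome genes in other settings. Among the proteasome promoters 5 of 41 (12.2%) held this motif on either strand, against 12.4% of 32851 promoters of the same length. In Psmb8 the capitals mark the core of the interferon gamma activated site, TTCNNNGAA, found in 3 of 41 proteasome promoters (7.32%) and in 8.3% of all. In Psme1 they mark an interferon response repeat, GAAA and GAAA with 2 bases of any kind between, on the opposite strand at bases 9 to 18. This repeat was present in 5 proteasome promoters (12.2%), those of Psmb3, Psmd4, Psmd9, Psme1 and Psmg4, and in 3.44% of all. In Psmb9 they mark a CCAAT box on the opposite strand, a motif of 14 proteasome promoters (34.1%) and 37.4% of all. Psmb9 held neither interferon motif in this window, and Psmb8 did not hold the interferon response repeat. No match of 1 motif overlapped a match of another, and the matches are descriptions of these windows only.

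The alpha subunits form the outer rings of the core. Of the 8 genes (Psma1 to Psma8), 7 were below 0 and none passed the threshold, with a median log2 fold change of -0.11 that became -0.01 after quantile normalization. Psma7 had the smallest p. It measured 57.5, 62.8, 49.4 and 42.5 units in vehicle-treated mice and 43.8, 38.6, 42.9 and 45.5 units in pioglitazone-treated mice. Only vehicle mouse 4 fell within the pioglitazone range (log2 fold change -0.30, SE 0.16, limma p = 0.0875, exact permutation p = 0.114). Psma3 had the lowest value of the alpha subunits at -0.32. Psma8, the germ-cell paralog of Psma7, was the exception at 0.16, with signals of 0.727 to 1.16 units close to the median of the array.

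The ATPases Psmc1 to Psmc6 form the ring that unfolds the substrate. Of these, 5 were below 0 and 1 above, with a median of -0.15 and none called. Psmc4 measured 52.3, 58.8, 43.3 and 40.2 units in vehicle-treated mice and 48.4, 34.0, 34.1 and 38.2 units in pioglitazone-treated mice. Pioglitazone mouse 1 was again inside the vehicle range, and the other pioglitazone values were under all vehicle values. The log2 fold change was -0.33 (SE 0.18, limma p = 0.0994, exact permutation p = 0.114). A second, dimmer probe of Psmc4 gave -0.086. Psmc2 was the only ATPase above 0, at 0.031.

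The non-ATPase subunits of the regulatory particle form its scaffold and lid and include the ubiquitin receptor Psmd4 and the deubiquitinase Psmd14. Of the 11 genes (Psmd1, Psmd2, Psmd3, Psmd4, Psmd6, Psmd7, Psmd8, Psmd11, Psmd12, Psmd13 and Psmd14), 10 were below 0. The median was -0.28 (-0.15 after quantile normalization), and none was called in the main limma fit. Psmd8 was called with the replicate number as a block (8.02% of named genes called) and Psmd7 on linear values (6.25%). Several of these genes were called without pioglitazone mouse 1 (7.63%), without vehicle mouse 4 (6.6%) and with 3 against 3 mice (8.7%). None was called when any other single mouse was left out. After quantile and cyclic loess normalization none was called, and Psmd8 had a limma p of 0.23 in each. In the main fit Psmd8 had the smallest p. It measured 24.7, 27.8, 34.4 and 22.6 units in vehicle-treated mice and 21.0, 19.9, 24.1 and 19.9 units in pioglitazone-treated mice. Only pioglitazone mouse 3 was above the lowest vehicle value (log2 fold change -0.35, SE 0.16, limma p = 0.0594, exact permutation p = 0.0571). Psmd4, with means of 68.0 ± 12.7 and 52.6 ± 10.4 units, had a log2 fold change of -0.37 and Psmd7 one of -0.30, both with an exact permutation p of 0.0571. Psmd11 (0.011) and Psmd13 (-0.0007) were at 0, and Psmd14 was at -0.17. Psmd2, a scaffold subunit, had the widest spread of all 45 genes, 7.82-fold, from 1.95 units in pioglitazone mouse 1 to 15.3 units in pioglitazone mouse 3.

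Psme1 and Psme2 encode the interferon-induced activator that caps the core in place of the regulatory particle, and Psme3 encodes its nuclear counterpart. Psme1 measured 90.2, 76.8, 120.2 and 67.9 units in vehicle-treated mice and 70.0, 55.3, 69.6 and 66.8 units in pioglitazone-treated mice. The pioglitazone-treated mice were close together, while vehicle mouse 3 stood high and vehicle mouse 4 fell within the pioglitazone range. The means of 88.8 ± 22.9 and 65.4 ± 6.91 units differed by -0.41 on the log2 scale (SE 0.19, limma p = 0.0617, exact permutation p = 0.0857), and a second, dimmer probe gave -0.35 (limma p = 0.0582). With the replicate number as a block, Psme1 passed the unadjusted threshold. Its partner Psme2 was at -0.16 and Psme3 at -0.056. Psmf1, which encodes an inhibitor of the core, had the lowest log2 fold change of the 45 genes (-0.53, SE 0.45), but its signals of 0.0764 to 0.442 units lay around the limit of sensitivity.

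The assembly factors are chaperones that leave the finished complex. Psmg1 to Psmg4 help to build the core and Psmd5, Psmd9 and Psmd10 the base of the regulatory particle. Of these 7 genes 6 were below 0, with a median of -0.17 and none called. Psmd10, also known as the oncoprotein gankyrin, measured 15.7, 15.4, 15.8 and 11.9 units in vehicle-treated mice and 13.2, 11.4, 12.2 and 10.9 units in pioglitazone-treated mice. Vehicle mouse 4 was alone among the vehicle-treated mice in lying within the pioglitazone range (log2 fold change -0.30, SE 0.15, limma p = 0.0718, exact permutation p = 0.0857). Psmg2 was above 0 at 0.21, with a standard error of 0.37 and a single low value, 2.50 units in vehicle mouse 3.

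The proteasome genes as a group differed between mice of the same treatment. The median log2 deviation of the 45 genes from their mean over the 8 mice was 0.20, 0.39, -0.044 and -0.070 in the vehicle-treated mice and 0.033, -0.18, -0.11 and -0.054 in the pioglitazone-treated mice. Vehicle mice 1 and 2 were high, pioglitazone mouse 2 was low, and the remaining mice lay close together across the groups. Named genes above 10 units as a whole had medians of 0.27 in vehicle mouse 1 and -0.17 in pioglitazone mouse 2, close to the proteasome genes, and of 0.13 in vehicle mouse 2. Their medians were further from 0 than those of the proteasome genes in vehicle mouse 3 (-0.15) and pioglitazone mouse 1 (0.23). Vehicle mouse 2 was the highest of the 8 mice for 27 of the 45 genes (60.0%), compared with 18.7% of named genes above 10 units. Pioglitazone mouse 2 was the lowest for 17 genes (37.8%), compared with 23.7%. Pioglitazone mouse 1 was the lowest for 9 genes (Psma1, Psma4, Psmc1, Psmc3, Psmc5, Psmd2, Psmd5, Psmd13 and Psmd14), or 20.0%, compared with 8.03% of named genes above 10 units. It was the highest for 6 (13.3%), compared with 27.5%. Vehicle mouse 3 was the lowest for 11 genes (24.4%), compared with 37.45%. Without vehicle mouse 2, the median log2 fold change of the 45 genes was -0.12, and 30 were below 0 and 15 above.

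**Figure D4:**
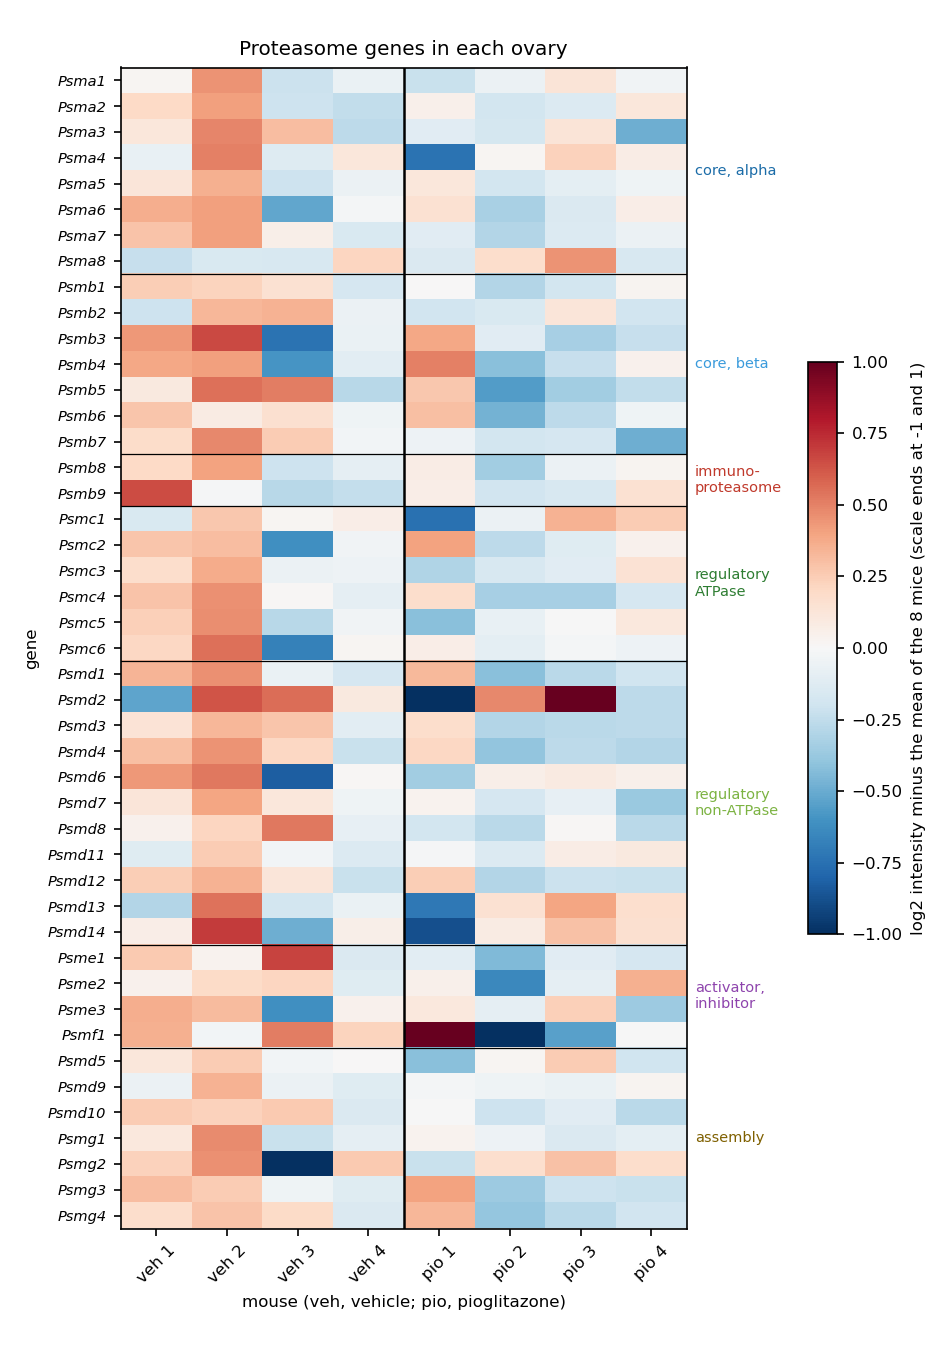
Heat map of the 45 proteasome genes tested (rows, grouped by role) in the 8 mice (columns), as log2 intensity minus the mean of the 8 mice, with the colour scale ending at -1 and 1. Vehicle mouse 2 is high for most genes, and pioglitazone mouse 1 has high and low genes within the same roles.

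The count of called genes moved with the mice included. It was 0 without vehicle mouse 2 (4.05% of named genes called) or without pioglitazone mouse 4 (2.14%), 8 without pioglitazone mouse 1 (7.63% of named genes) and 9 without vehicle mouse 4 (6.6% of named genes), all of them lower after pioglitazone. When vehicle mouse 3 and pioglitazone mouse 1 were both left out, 9 genes were called (Psmb3, Psmb7, Psmc4, Psmd1, Psmd3, Psmd4, Psmf1, Psmg3 and Psmg4), all lower, where 8.7% of named genes were called in either direction. In this comparison of 3 against 3 mice 40 of 45 genes were below 0, against 62.5% of named genes, and the median was -0.29. The groups of 10 genes did not overlap, where 13.8% of named genes were apart with the lower values after pioglitazone. With the replicate number as a block, 3 genes were called lower, Psmb7, Psmd8 and Psme1, where 8.02% of all named genes were called. Within each of the 4 replicate numbers the pioglitazone-treated mouse was lower in all 3 genes, which were picked by this fit. The same held for 9 of the 45 genes. No share over all named genes is at hand for this count, so it is a description only. The exact permutation tests given for single genes do not use the replicate numbers. No proteasome gene passed after Benjamini-Hochberg adjustment in these comparisons.

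Many proteasome genes varied together between mice of the same group. After removal of the group means, the median correlation over the 990 pairs of proteasome genes was 0.36 across the 8 arrays, and 726 pairs (73.3%) were above 0, whereas the median over pairs of all named genes was 0.03. These correlations are descriptions over 8 arrays that share the brightness of each array. Of the 16065 named genes 3311 were above 10 units, against 37 of the 45 proteasome genes. No median over pairs of bright named genes is at hand, so the 2 medians compare genes of unlike brightness. Psmd4 and Psmd12 had the highest r, 0.997, followed by Psma4 and Psmd13 (0.987), Psmb4 and Psmc2 (0.986) and Psmc4 and Psmd1 (0.983). Psmb7 was closest to the lid subunit Psmd7 (0.972). Psma5 (0.933), Psma2 (0.931) and Psmb8 (0.912) followed the median of the other proteasome genes most closely. By contrast 4 genes were below 0 against this median, namely Psma8 (-0.46), Psmd2 (-0.25), Psme1 (-0.079) and Psmc1 (-0.067). The lowest pair was Psmb6 and Psmd2 (-0.84).

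Other genes of the pathway are given beside the 56.6% of named genes below 0. Of 16 tested partners of the complex, 12 were below 0 and none was called (median -0.17). The smallest limma p was that of Sem1, a small lid subunit, with means of 107.3 and 87.5 units (log2 fold change -0.30, exact permutation p = 0.171), and the assembly factor Pomp had means of 53.0 and 46.8 units. Of 7 genes for factors that control proteasome genes, 4 were below 0, a share near that of all named genes, and none was called. Among them were Ngly1, which processes the factor encoded by Nfe2l1 (-0.22, exact permutation p = 0.114), and Nfe2l2 (-0.12). Nfe2l1 itself was at 0.029. Of 12 ubiquitin genes and core ubiquitin enzymes, 10 were below 0 and none was called, with a median of -0.18. The conjugating enzyme gene Ube2d1 had the smallest p (means of 22.4 and 18.6 units, log2 fold change -0.27, exact permutation p = 0.0857).

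Class I antigen presentation and interferon response genes were set beside the immunoproteasome subunits, which share their induction by interferon and supply peptides for presentation. Over all named genes tested, 56.6% were below 0, 3.27% were called lower and 1.57% higher. Of 10 presentation genes, 7 were below 0, and 1 was called lower. This was Calr, the chaperone calreticulin, with 7.70 and 5.80 units (log2 fold change -0.42). Of 17 interferon response genes, 13 were below 0 and 2 were called lower, the GTPase gene Irgm2 (4.09 and 2.81 units, log2 fold change -0.53) and the chemokine gene Cxcl10 (1.84 and 1.31 units, log2 fold change -0.53). Pioglitazone mouse 1 had the lowest median of this list, -0.64 on the log2 scale, whereas its Psmb8 and Psmb9 signals were within the range of the other mice. The exact permutation p was 0.0571 and the adjusted limma p 0.837 for each of the 3 genes.

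Markers of other cells were set beside the proteasome genes, and their part in the results was not tested. The shares over all named genes tested were 56.6% below 0, 3.27% called lower and 1.57% called higher. Of 9 macrophage markers, 9 were below 0 and none was called (median -0.23, summed signals 106.5 to 158.0 units after vehicle and 97.9 to 130.2 units after pioglitazone), with the smallest limma p for C1qa (15.3 and 11.8 units, log2 fold change -0.38, exact permutation p = 0.0571). Of 10 luteal markers 9 were below 0 and none was called, with a median of -0.50 and summed signals of 444.7 to 638.7 and 370.7 to 550.1 units. The smallest limma p was that of the lipoprotein receptor gene Scarb1 (6.62 and 4.56 units). Luteal medians were high in vehicle mice 2 and 3 and pioglitazone mouse 3 (0.95, 0.67 and 0.79) and low in pioglitazone mice 1 and 4 and vehicle mouse 4 (-1.13, -0.93 and -0.63). All 10 granulosa markers were above 0 (median 0.31), and follistatin (Fst) was called higher. Of 9 leukocyte markers, 1 was called lower (Cd79a) and 2 higher (Cd79b and Ms4a1), with summed signals of 16.5 to 18.2 and 15.3 to 17.7 units. The 8 adipocyte markers had a median of 0.085, none was called, and their summed signals ran from 42.5 to 86.4 units after vehicle and from 27.9 to 156.0 units after pioglitazone. The highest sum was that of pioglitazone mouse 1, with a median log2 deviation of 1.33 and an Adipoq signal of 40.2 units against 1.54 to 10.7 units in the other mice. Of the oocyte, theca and stroma, and oviduct and surface lists, with 10, 9 and 7 markers tested, 1 each was called, Padi6 and Upk3b lower and Myh11 higher. No list had all of its markers under the limit of sensitivity.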

How the data were processed

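RNA from the ovaries of 8 LY mice, 4 per treatment, had been hybridized to CodeLink whole mouse arrays, 1 mouse per array. The authors scanned with an Axon GenePix scanner, corrected for background with CodeLink software and used GeneSpring to scale slides to their medians. The deposited table holds 1 linear intensity per probe and mouse. The methods add a scaling of every gene to its median, and the values show no sign of that step. The code -9999 marks a missing spot, with 47 to 211 per array and none among the proteasome genes.

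Arrays were rescaled to a median of 1 over the probes present. Values under 0.05 were raised to 0.05 before log2. Of 36227 probes, 21615 were assigned to a single gene by the platform annotation, 681 to several genes and 13931 to none. Testing required 3 or more values per group and a group mean of 0.2 units or more in either group. Group differences came from limma 3.58.1 under R 4.3.3, and p-values were adjusted by Benjamini-Hochberg over all probes tested. Single genes also received an exact permutation test, 2-sided, which enumerated all 70 ways to split the mice 4 and 4. No list was tested as a set. The number of arrays limits the precision.

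The proteasome genes and the other lists were chosen with earlier results of these data known. Values of every mouse are given for genes called or with groups that do not overlap, for the gene with the smallest p in each role, and for the catalytic subunits and their replacements; other genes are given by range. Of each other list, the tested genes with the smallest p under 0.05 are named, up to 4, or the 1 with the smallest p.

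Mice carry the same replicate numbers in both groups. The labels do not say whether mice of the same number belong together. Deviations from the group means correlated between mice of the same number (r = 0.51, 0.18, 0.27 and 0.23 for numbers 1 to 4, over all probes). Over the proteasome genes r was 0.56, 0.55, 0.14 and 0.15. A fit with the number as a block was run as an alternative, and the pairing in it is an assumption. The alternatives were other floors, normalizations, filters on dim probes and variance models, the methods' t-test, linear values, the mean over probes of a gene and leaving out each mouse. A comparison of 3 against 3 mice was added after seeing the data. The calculations were tested on simulated data.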

Additional observations from a re-analysis of the deposited data

Results flagged for a closer look

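In 8 of the 90 groups of 4 mice checked over the proteasome genes, 1 mouse stood apart from the other 3 by more than Dixon's 95% critical value for 4 samples, where chance gives about 4.5 (1 in 20). Pioglitazone mouse 1 accounted for 4 of them. It was high in Psmd3 (26.3 units, others 19.0 to 19.4), Psmd12 (50.6, others 34.9 to 36.9) and Psmg3 (14.1, others 8.25 to 9.19), and low in Psmd6 (31.7, others 41.8 to 42.8). Vehicle mouse 4 was high in Psma8 (0.991 units, others 0.727 to 0.766) and low in Psmd10 (11.9, others 15.4 to 15.8). Vehicle mouse 2 was high in Psmd9 (5.94 units, others 4.28 to 4.48), and pioglitazone mouse 3 was high in Psmb2 (36.4 units, others 29.3 to 30.1).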

How the results depend on the processing

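The median log2 fold change of the proteasome genes stayed below 0 under all 19 alternatives, with a range of -0.29 to -0.083 on the log2 scale and of -0.25 to -0.12 when each mouse was left out. The count of proteasome genes called at an unadjusted p below 0.05 was 1. It became 0 after quantile normalization (4.05% of named genes called) and after cyclic loess normalization (4.13%), 2 with the methods' t-test (Psmb7 and Psmd10, 6.45%), 2 with the mean over all probes of a gene (4.48%), 3 with limma on linear values (Psmb7, Psmd7 and Psmd10, 6.25%), 3 with the replicate block (8.02%) and 9 with 3 against 3 mice (8.7%). When each mouse was left out it ran from 0, without pioglitazone mouse 4 (2.14%) or vehicle mouse 2 (4.05%), to 9, without vehicle mouse 4 (6.6%). The count of genes whose groups did not overlap was 1. It was 2 with the mean over all probes (2.68% of named genes apart and lower) and 10 with 3 against 3 mice (13.8%). When each mouse was left out it ran from 1, for example without vehicle mouse 1 (3.54%), to 8, without pioglitazone mouse 1 (8.64%) or vehicle mouse 4 (6.74%). Over all probes, 1685 were called, 2635 with the replicate block and 737 to 2443 when each mouse was left out. Psmb9 turned from -0.064 to 0.0061 with cyclic loess normalization, 0.0076 with quantile normalization and 0.14 without vehicle replicate 1, and ran from -0.17 to 0.14 when each mouse was left out. Of 210 alternatives over 10 single genes, 189 kept their direction and side of the threshold, 4 lost the call, all for Psmb7, and 14 gained it. The causes were not tested. With 4 arrays per group, adjusted p-values of the proteasome genes were 0.55 or higher in every alternative, and signals around 0.2 units, as in Psmf1, are the least precise.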
